A study of Drosophila melanogaster with 3 samples.

Results

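The genes described here are 10 rows of the deposited tables that encode enzymes of glycolysis and glycogen breakdown: Gapdh1, Gapdh2, Ald, Tpi, Pgk, Pglym78, Eno, PyK, ImpL3 and GlyP. They were chosen by name, as 10 of the 10457 gene symbols listed over the series. All 10 were listed in replicates 2 and 3, and 9 were listed in replicate 1, where Pglym78 had no row. Cells came from the peripheral chemosensory organs of Drosophila melanogaster larvae of instar 3, in 3 replicate libraries of 1 group with no treatment and no second group. Organs carrying a fluorescent label, whose driver the labels do not name, were picked by hand and dissociated with collagenase and elastase. Single cells were caught with barcoded beads by DisCo, a droplet method for small samples, and the cDNA was amplified for 21 cycles. Nothing in the labels says whether the replicates were separate pools of larvae, so spread and p-values over libraries may be technical. The sample titles end in Sens40M, SensMix and SensSingle for replicates 1, 2 and 3, and the labels do not explain these endings. Differences between the libraries cannot be told apart from any difference in handling that the endings may name.

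Glycolysis splits glucose into pyruvate in the cytosol and yields ATP without oxygen, and glycogen phosphorylase feeds it by releasing glucose units from stored glycogen. In the insect nervous system glia are known to take up sugar, run glycolysis and pass lactate or alanine to neurons, which rely more on mitochondria. In Drosophila larvae the lower glycolytic genes and lactate dehydrogenase are also known to be switched on together for growth.

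Each bead carries a barcode that tags the transcripts it binds, and barcodes are reported as such rather than as cells. Barcodes with at least 200 genes were kept, which left 61, 214 and 231 barcodes with 497492, 654062 and 345621 counts in replicates 1, 2 and 3. The deepest barcode held 23.0%, 24.1% and 34.3% of those counts, and no kept barcode was shared between libraries. Replicate 1 stood apart: ribosomal protein genes took 37.5% of its counts, against 13.7% and 20.5% in replicates 2 and 3. The 12 neuron markers summed to 408, 7012 and 14690 counts per 1000000 kept counts (CPM) in replicates 1, 2 and 3, and the 10 glia markers to 762, 3761 and 483 CPM. The 8 epidermis markers summed to 2257, 9.17 and 31.8 CPM. The glia markers repo, Eaat1, alrm and loco were at 0 in replicate 1, and alrm was at 0 in all 3 libraries. Muscle markers lay between 73.4 and 259 CPM, trachea markers between 113 and 342 CPM, support cell markers between 58.3 and 102 CPM, and hemocyte, fat body and salivary gland markers between 0 and 53.5 CPM. The part of these differences in the results below was not tested.

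The 10 genes together took 0.491% of the kept counts in replicate 1 (exact 95% interval 0.472 to 0.511), 4.72% in replicate 2 (4.67 to 4.77) and 2.46% in replicate 3 (2.41 to 2.51). The mean was 2.56% ± 2.12 (SD, n = 3). Intervals are exact binomial or Poisson intervals and cover counting error only. The libraries differed far beyond counting error, with the 10 genes scarcest in the library rich in ribosomal protein and epidermis transcripts. Levels of different genes are not compared with each other, because the counts are not scaled to transcript length.

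The upper part of the pathway was represented by aldolase and triose phosphate isomerase. Ald (FBgn0000064, arm 3R, now named Ald1), which cleaves fructose bisphosphate, stood at 913 CPM in replicate 1, 8271 CPM in replicate 2 and 6713 CPM in replicate 3. Tpi (FBgn0086355, arm 3R), which interconverts the triose phosphates, stood at 790, 2367 and 1632 CPM in replicates 1, 2 and 3. Both were lowest in replicate 1 and highest in replicate 2, and the replicate 2 over replicate 1 ratio was 9.06 for Ald and 3.00 for Tpi.

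Glyceraldehyde phosphate dehydrogenase, which makes NADH, is encoded by a pair of similar genes. Gapdh1 (FBgn0001091, arm 2R) was at 271 CPM in replicate 1, 5579 CPM in replicate 2 and 2098 CPM in replicate 3. Gapdh2 (FBgn0001092, arm X) was at 1791, 13658 and 5275 CPM in replicates 1, 2 and 3. Gapdh1 made up 13.2% of the counts of the pair in replicate 1 (11.1 to 15.4), 29.0% in replicate 2 (28.2 to 29.8) and 28.5% in replicate 3 (26.7 to 30.2). The intervals of replicates 2 and 3 overlapped, and that of replicate 1 lay below both. How reads that match both genes were counted is not given in the sources used here, so the split within the pair is uncertain.

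The lower steps to pyruvate differed between the libraries in other proportions. Pgk (FBgn0250906, arm 2L), phosphoglycerate kinase and the first ATP-yielding step, was at 314, 2079 and 2711 CPM in replicates 1, 2 and 3, and was the only one of the 10 genes with its highest level in replicate 3. Pglym78 (FBgn0014869, arm 3R), a phosphoglycerate mutase, was at 4466 CPM in replicate 2 and 1250 CPM in replicate 3. No count of Pglym78 was found in replicate 1, where 3 counts would equal 6.03 CPM, so it was at least 741-fold higher in replicate 2 and at least 207-fold higher in replicate 3. Pglym78 was 1 of 10 genes with at least 500 CPM in replicates 2 and 3 and no kept count in replicate 1, out of 248 genes at that level. Chosen after their values were seen, others among those 10 were 7B2, a neuropeptide-processing chaperone, and Eaat2, a transporter.

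Eno (FBgn0000579, arm 2L), enolase, was at 382, 4588 and 1068 CPM in replicates 1, 2 and 3. PyK (FBgn0267385, arm 3R), pyruvate kinase and the last ATP-yielding step, was at 113, 2611 and 2150 CPM. Enolase was therefore much lower in replicate 3 than in replicate 2, with a replicate 2 over replicate 3 ratio of 4.30, whereas pyruvate kinase differed less between these libraries, with a ratio of 1.21. Pgk, Pglym78 and Eno each overlap a gene on the other strand in the annotation (Cwc25 and Bacc, eIF2D, and Rrp40), and Ald overlaps an antisense RNA. Whether the counting used strand is not given in the sources used here.

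ImpL3 (FBgn0001258, arm 3L, now named Ldh), lactate dehydrogenase, turns pyruvate into lactate. It had 6 kept counts in replicate 1, or 12.1 CPM (4.43 to 26.3), against 3000 CPM in replicate 2 (2868 to 3135) and 1458 CPM in replicate 3 (1334 to 1591). The ratio of replicate 2 to replicate 1 was 249, and it was the largest of the 9 genes counted in both. GlyP (FBgn0004507, arm 2L), glycogen phosphorylase, was the exception, at 328 CPM in replicate 1 (279 to 382), 593 CPM in replicate 2 (536 to 655) and 237 CPM in replicate 3 (189 to 294). It was the only one of the 10 with its lowest level in replicate 3, and its replicate 2 over replicate 1 ratio was 1.81, the smallest of the 9.

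**Figure D1:**
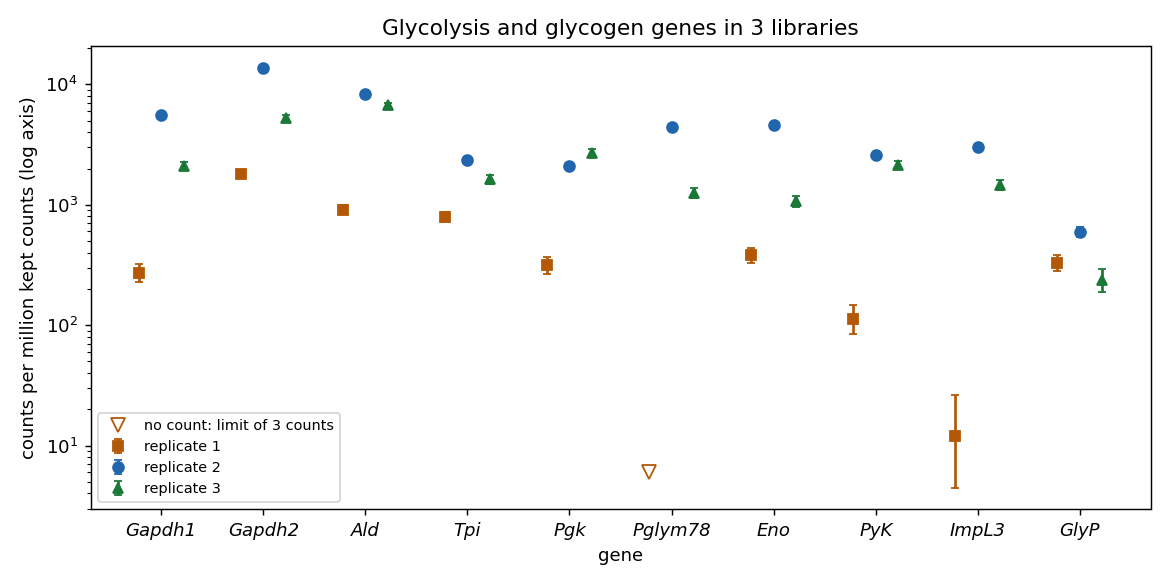
Levels of the 10 genes in each library, in CPM on a log axis, with exact 95% Poisson intervals for counting error. Replicate 1 sits lowest for 9 of the 10 genes, the open triangle marks the limit of 3 counts (6.03 CPM) for Pglym78, and GlyP has the narrowest range.

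Of the 10 genes, 9 were highest in replicate 2 (90.0%), against 39.8% of the 3200 genes with at least 50 counts over the libraries. Likewise 9 were lowest in replicate 1, against 42.8% of those genes. In a list of other sugar metabolism genes, 5 of 28 were not listed in any table, and of the 23 listed, 12 were highest in replicate 2 (52.2%). Of these 23, 10 were lowest in replicate 1 (43.5%) and 11 in replicate 3 (47.8%). Its best counted genes were Hex-A and Pfk, for the priming kinases, and Pgi and Pgm, for the hexose phosphate isomerase and mutase. Hexokinase Hex-A had 205, 1231 and 1936 CPM in replicates 1, 2 and 3, and phosphofructokinase Pfk had 56.3, 1228 and 171 CPM. Pgm, which links glycogen breakdown to glycolysis, had no count in replicate 1, 890 CPM in replicate 2 and 246 CPM in replicate 3. Of 14 genes for mitochondrial energy metabolism, 9 were highest in replicate 2 and 12 lowest in replicate 1, yet the summed list spanned a narrower range, with 5017, 10736 and 9820 CPM. These lists were chosen with earlier results of these data known, and the counts are descriptions.

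Counts of the 10 genes were spread over barcodes of all depths. Barcodes were grouped by the number of genes counted. In classes of under 200, 200 to below 500, 500 to below 1000 and at least 1000 genes, the 10 genes took 0.589%, 0.761%, 0.239% and 0.499% of the counts in replicate 1. In replicate 2 they took 4.60%, 4.21%, 4.20% and 4.83% of the counts, and in replicate 3 the values were 2.28%, 2.36%, 2.50% and 2.50%. The highest class was 1.15 times the lowest in replicate 2 and 1.10 times in replicate 3, so barcodes too shallow to be kept carried nearly the share of the deepest ones. In replicate 1 the factor was 3.18, with no steady order by depth.

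**Figure D2:**
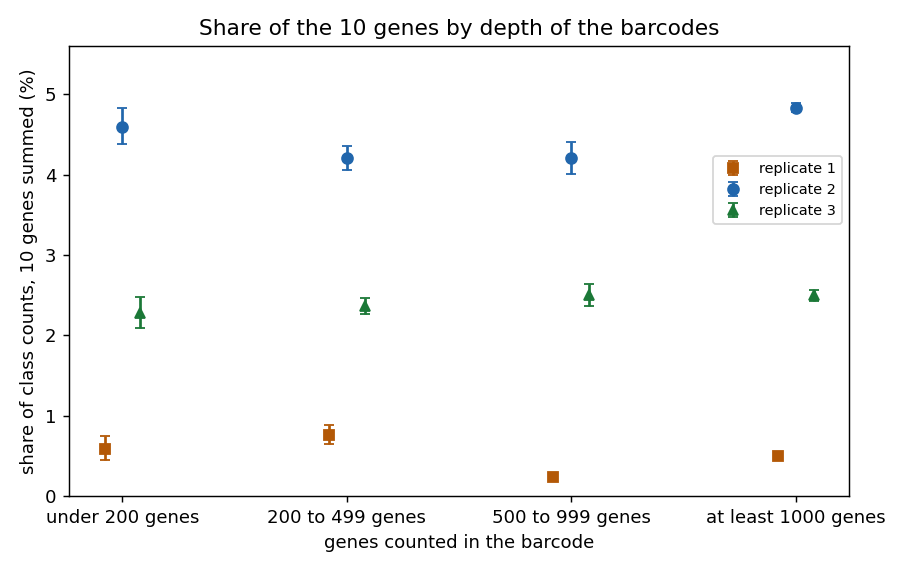
Share of counts taken by the 10 genes together, in percent, in 4 classes of barcodes by genes counted, with exact 95% intervals for counting error. In replicates 2 and 3 the classes lie between 4.20% and 4.83% and between 2.28% and 2.50%, while replicate 1 stays under 0.8% in every class.

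GlyP followed depth more than the other genes did in replicates 2 and 3. In the same order of classes it stood at 255, 346, 652 and 623 CPM in replicate 2 and at 84.0, 59.9, 399 and 287 CPM in replicate 3, where the shallowest classes rest on 2 and 6 counts. In replicate 1 it had 1 count under 200 genes, then 455 CPM, no count (3 counts would be 80.7 CPM) and 349 CPM. Summed over deep barcodes (at least 1000 genes) and shallow barcodes (200 to below 500 genes), with the library as a block, GlyP had a log2 fold change of 1.02 ± 0.61 (SE) and did not pass the test (edgeR quasi-likelihood, adjusted p = 0.952). Pgk had a log2 fold change of 0.37 ± 0.44 (adjusted p = 0.956). That of Gapdh1 was -0.27 ± 0.43 (edgeR adjusted p = 0.959), and its sign turned to 0.10 without replicate 1 and to 0.22 with no filter on low counts. None of the 10 genes passed the threshold of 0.05 in edgeR or DESeq2 and none had an unadjusted edgeR p under it, against a background of 0.199% of 1508 genes called by edgeR and 0.0898% of 10020 by DESeq2. Those 3 called genes, fz2, a ribosomal RNA pseudogene (CR40596) and CG6005, were all lower in deep barcodes. The median log2 fold change of the 10 genes was 0.08, against 0.26 over all genes tested, and their range was -0.27 to 1.02. From shallow to deep, neuron markers were at 2375, 1093, 323 and 381 CPM in the classes of replicate 1, at 6817, 5837, 7200 and 7161 CPM in replicate 2 and at 7770, 8140, 14388 and 18129 CPM in replicate 3, and their part in these values was not tested.

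How many of the 10 genes a barcode registered followed its depth. Deep barcodes held counts of 5.75, 9.97 and 9.90 of the 10 genes on average in replicates 1, 2 and 3, and shallow barcodes held 2.79, 7.07 and 5.51. When each barcode was thinned to the lower quartile of the counts of kept barcodes, deep barcodes held 1.33, 7.02 and 5.28 of the genes, and shallow barcodes 1.72, 6.64 and 4.87. The mean difference was 3.42 ± 0.848 genes before thinning and 0.131 ± 0.450 genes after it (SD, n = 3), so it was then smaller than its spread over libraries. Thinning left out 4, 61 and 60 shallow barcodes. Per gene, Gapdh2 was counted in 85.2%, 100% and 93.5% of kept barcodes in replicates 1, 2 and 3, and ImpL3 in 6.56%, 71.5% and 49.8%. No set of barcodes known to lack these genes was available, so no background share was set for them.

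Barcodes that lean to glia were next set against those that lean to neurons. A barcode was called glia-leaning or neuron-leaning by which marker list had more counts, with at least 2 marker counts. These names refer to the marker counts only, and the cell type of the barcodes was not tested. In replicate 1 only 6 of the 10 glia markers were counted, with 762 CPM in sum against 2257 CPM of epidermis markers. Replicate 1 had 28 glia-leaning and 6 neuron-leaning barcodes, and replicate 2 had 33 and 138. Replicate 3 had 3 glia-leaning barcodes, fewer than the 5 required, so only replicates 1 and 2 entered the test. Single barcodes weighed heavily in these classes. The deepest barcode of replicate 2, with 1115 glia and 852 neuron marker counts, gave 71.1% of the glia-leaning counts of replicate 2. The third deepest barcode of replicate 1, with 12 neuron and 10 glia marker counts, gave 65.1% of the neuron-leaning counts of replicate 1.

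Gapdh2 was higher in the glia-leaning class of both libraries. It stood at 1928 CPM in glia-leaning barcodes (1790 to 2074) and 1200 CPM in neuron-leaning barcodes (962 to 1478) of replicate 1. In replicate 2 it stood at 16048 CPM in glia-leaning barcodes (15524 to 16584) and 12368 CPM in neuron-leaning barcodes (12032 to 12710). The log2 fold change was 0.76 ± 0.29 (edgeR unadjusted p = 0.00955, adjusted p = 0.999), which did not pass the test. Without the 3 deepest barcodes of each library it turned to -0.08, and with barcodes from 100 genes on, which brought in replicate 3, to -0.0018.

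Ald, Gapdh1 and GlyP had a different order of the classes in each library. Ald was at 860 CPM in glia-leaning and 750 CPM in neuron-leaning barcodes of replicate 1, with overlapping intervals, and at 6505 CPM in glia-leaning against 9258 CPM in neuron-leaning barcodes of replicate 2. Gapdh1 stood at 259 CPM in glia-leaning and 136 CPM in neuron-leaning barcodes of replicate 1, again with overlapping intervals, and at 4439 CPM in glia-leaning against 6132 CPM in neuron-leaning barcodes of replicate 2. GlyP stood at 350 CPM in glia-leaning and 136 CPM in neuron-leaning barcodes of replicate 1, the second from 10 counts, and at 371 CPM in glia-leaning against 712 CPM in neuron-leaning barcodes of replicate 2. For these 3 genes the class with the higher level was glia-leaning in replicate 1 and neuron-leaning in replicate 2. The glia-leaning values of replicate 2 were near those of its deepest barcode alone, at 6405 CPM for Ald, 4136 CPM for Gapdh1 and 330 CPM for GlyP. The second deepest barcode of replicate 1 was glia-leaning by 24 glia against 20 neuron marker counts. It held 84 of the 163 GlyP, 173 of the 454 Ald and 34 of the 135 Gapdh1 counts of that library. That 1 barcode thus weighed heavily on the glia-leaning values of replicate 1.

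Pgk had a log2 fold change of 0.83 ± 0.59 and Tpi 0.50 ± 0.49 (edgeR adjusted p = 0.999 for both). Tpi turned to -0.29 without the 3 deepest barcodes and to -0.31 from 100 genes on. ImpL3 was at 3350 CPM in glia-leaning and 2840 CPM in neuron-leaning barcodes of replicate 2 (3113 to 3600 and 2680 to 3007), and had only 2 counts in each class of replicate 1. None of the 10 genes passed in edgeR or DESeq2, 1 (Gapdh2) had an unadjusted edgeR p under 0.05, and edgeR called 0.066% of 3029 genes. Those 2 called genes were GstE4, lower, and Idgf4, higher in the glia-leaning class. The median log2 fold change of the 10 genes was 0.27, against 0.23 over all genes tested.

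Barcodes with counts of at least 2 glia markers were also set against the remaining kept barcodes. In replicate 1 the 10 genes took 0.492% of the counts with and 0.482% without glia markers. Replicate 2 had 4.76% with and 4.35% without, and replicate 3 had 2.47% with and 2.45% without. Only in replicate 2 did the intervals of the classes lie apart. GlyP had a log2 fold change of 0.65 ± 0.39, Pgk 0.46 ± 0.29 and Gapdh2 0.33 ± 0.28 (edgeR adjusted p = 0.962 for each). In barcodes under 1000 genes alone GlyP turned to -0.15 and Gapdh2 to -0.31, and Gapdh2 turned to -0.10 without the deepest barcodes and those near them. None of the 10 genes passed in edgeR or DESeq2, none had an unadjusted edgeR p under 0.05, and the background was 0.294% of 1702 genes called by edgeR and 0.107% of 10270 by DESeq2. Those 5 called genes, fz2, the ribosomal RNA pseudogene CR40596, Obp56d, P58IPK and Obp56c, were lower with glia markers, and the odorant-binding protein genes among them are known from sensillum support cells. Barcodes with glia markers were deeper, with medians of 8253, 1123 and 2170 counts against 1009, 424 and 495.5 without, in replicates 1, 2 and 3.

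Barcodes with counts of at least 2 neuron markers had a higher GlyP level than the remaining kept barcodes in each library. GlyP stood at 437 CPM with neuron markers (371 to 512) and 67.8 CPM without (32.5 to 125, 10 counts) in replicate 1. In replicate 2 it was at 602 CPM with (543 to 665) and 373 CPM without (171 to 708, 9 counts). In replicate 3 it was at 247 CPM with neuron markers (196 to 307) and 57.0 CPM without (1.44 to 318, 1 count). Only in replicate 1 did the intervals lie apart, and there 152 of the 163 kept GlyP counts lay in the second deepest barcode and the kept barcodes within 4 edits of it. That barcode had 281 CPM of neuron and 337 CPM of glia markers, so it was also glia-leaning above. In replicate 3, 60 of the 82 GlyP counts lay in the deepest barcode and those within 4 edits of it. The 203 kept barcodes outside the 3 deepest and those near them had 7 (57.0 CPM). The log2 fold change of GlyP was 1.96 ± 0.60 (edgeR unadjusted p = 0.00112, adjusted p = 0.358), which did not pass, and it ranged from 1.33 to 2.85 with 1 library left out, the lowest without replicate 1. It was 2.02 without the 3 deepest barcodes, a fit that keeps the near barcodes of replicate 1 with their 68 GlyP counts, and 0.79 in barcodes under 1000 genes alone. GlyP failed the count filter, and gave no value, once barcodes near the deepest were also left out.

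Aldolase and pyruvate kinase came next. Ald stood at 1145 CPM with and 360 CPM without neuron markers in replicate 1, at 8301 CPM with and 7504 CPM without in replicate 2, and at 6654 CPM with and 7810 CPM without in replicate 3. PyK stood at 143 CPM with and 40.7 CPM without in replicate 1, at 2624 CPM with and 2280 CPM without in replicate 2, and at 2158 CPM with and 1995 CPM without in replicate 3. The gaps of both genes lay mostly in replicate 1, and in replicates 2 and 3 their intervals overlapped. In replicate 1, the second deepest barcode and the kept barcodes within 4 edits of it held 317 of the 454 Ald counts. They also held 46 of the 56 PyK counts. Their log2 fold changes were 0.71 ± 0.29 for Ald and 0.75 ± 0.38 for PyK (edgeR adjusted p = 0.927 for both). Ald turned to -0.12 without the deepest and near barcodes and to -0.0043 in barcodes under 1000 genes.

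All 10 genes had a positive log2 fold change with neuron markers, from 0.01 to 1.96 with a median of 0.49, against 68.4% positive and a median of 0.25 over all genes tested. With DESeq2 2 of the 10 were negative, where 18.5% of 10267 genes, not filtered on low counts, were positive with a median of -1.45. With RLE factors also 2 of the 10 genes were negative, and without the deepest and near barcodes 5 of the 9 that could be fitted, with a median of -0.12. None passed in edgeR or DESeq2, and 3 (GlyP, Ald and PyK) had an unadjusted edgeR p under 0.05. The background was 0% of 1901 genes called by edgeR, of which 92 had an unadjusted p under 0.05, and DESeq2 called 0. With RLE in place of TMM scaling the median of all genes moved from 0.25 to -0.03 and that of the 10 genes to 0.21. When 1 neuron marker was enough to place a barcode, replicate 3 had only 4 barcodes without a marker and dropped out. In that fit of replicates 1 and 2, 2 of the 10 genes passed, against a background of 0.726% of 2617 genes: Gapdh2 at 1.10 ± 0.20 (edgeR adjusted p = 2.68e-05) and Ald at 0.90 ± 0.24 (edgeR adjusted p = 0.0337), both higher with a marker. Under the other settings the adjusted p was 0.772 or above for Gapdh2 and 0.619 or above for Ald, and with at least 2 markers Gapdh2 had a log2 fold change of 0.40 ± 0.27. Barcodes with a marker numbered 35 and 199 in replicates 1 and 2, with median counts of 7480 and 549, and those without one numbered 26 and 15, with median counts of 817 and 351. Barcodes with at least 2 neuron markers were deeper, with median counts of 10873, 626 and 567.5 with and 1567.5, 375 and 385 without in replicates 1, 2 and 3.

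**Figure D3:**
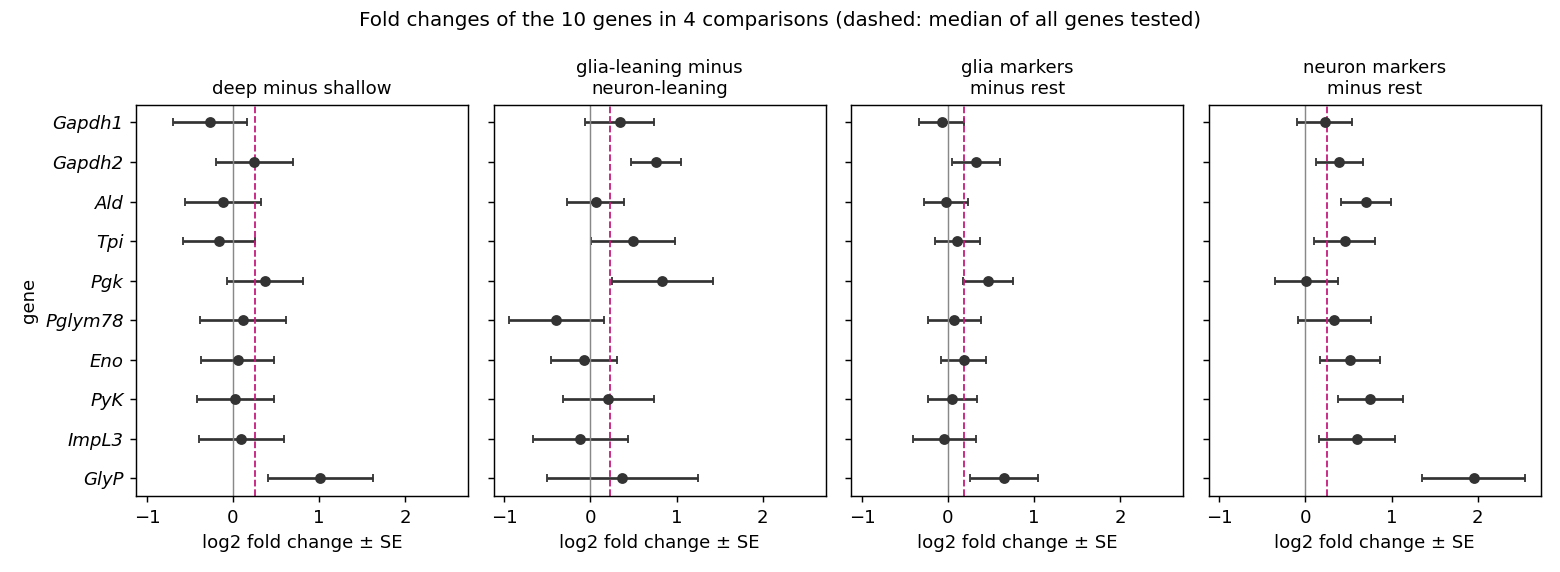
Log2 fold changes of the 10 genes with standard errors (edgeR, library as a block) in 4 comparisons of barcode classes, with 0 as a solid line and the median of all genes tested as a dashed line. No gene passed an adjusted p of 0.05 in any panel, and GlyP lies farthest to the right with neuron markers (1.96 ± 0.60).

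Of the other sugar metabolism genes, 13, 16, 13 and 12 passed the count filter in the deep, glia-leaning, glia marker and neuron marker comparisons, and of the mitochondrial genes 13, 14, 13 and 13. None of either list was called in any of the 4 comparisons by edgeR or DESeq2. All 10 of the glycolysis and glycogen genes passed the filter in each.

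Among barcodes with at least 1000 genes, the share of the 10 genes varied less, relative to its median, in replicates 2 and 3 than in replicate 1. It had a lowest, median and highest value of 0.151%, 0.298% and 1.15% over 24 barcodes in replicate 1. Over 29 barcodes in replicate 2 the values were 3.66%, 4.43% and 7.07%, and over 10 barcodes in replicate 3 they were 1.79%, 2.60% and 2.80%. The ranges of the 3 libraries did not overlap.

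**Figure D4:**
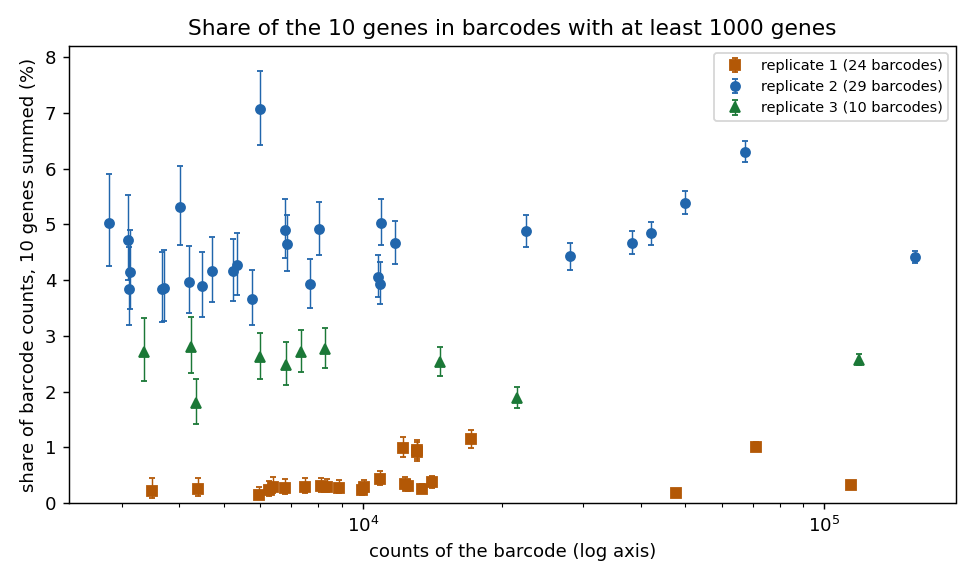
Share of a barcode's counts taken by the 10 genes, in percent, against the counts of the barcode (log axis), for barcodes with at least 1000 genes, with exact 95% intervals. The 3 libraries form separate bands, and in replicate 1 a set of barcodes near 1% stands above the others, which lie under 0.5%.

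Replicate 1's upper set belonged to its second deepest barcode. Of its deep barcodes, 4 lay within 4 edits of that barcode's sequence, and the 10 genes took 0.921% to 1.15% of their counts, against 1.01% in the second deepest barcode itself. The 13 deep barcodes near the deepest one had 0.240% to 0.375%, against 0.322% in the deepest itself. The third deepest had 0.180%, and the 1 deep barcode near it 0.151%. Whether such near barcodes mark separate cells was not tested, so they are not independent of the barcode they resemble.

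Grouping each of the 3 deepest barcodes of replicate 1 with all kept barcodes near it gave 3 unlike profiles. The groups held 18, 7 and 8 barcodes and 50.3%, 26.6% and 13.7% of the kept counts. GlyP had 20.0 CPM in the group of the deepest barcode (6.49 to 46.7), 1149 CPM in that of the second (974 to 1347) and 14.7 CPM in that of the third, from 1 count. So 152 of the 163 GlyP counts of replicate 1 lay in the group of the second deepest barcode. PyK had 1 count in the group of the deepest barcode, 348 CPM in that of the second (255 to 464) and no count in that of the third. Ald had 192 CPM in the group of the deepest barcode, 2397 CPM in that of the second and 337 CPM in that of the third.

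Pgk ran the other way. It had 548 CPM in the group of the deepest barcode (460 to 648), 7.56 CPM in that of the second, from 1 count, and 88.0 CPM in that of the third (32.3 to 192). Thus 137 counts lay in the group of the deepest barcode, 1 in that of the second, 6 in that of the third and 12 in all other kept barcodes. The near barcodes alone gave the same pattern, which is no separate check because they are not independent of the barcode they resemble. GlyP had no count near the deepest, where 3 counts would be 22.1 CPM, and stood at 1113 CPM near the second (864 to 1411). Pgk was at 589 CPM near the deepest (467 to 733) and had no count near the second, where 3 counts would be 49.1 CPM. Neuron and glia markers were few in these barcodes, with 33 neuron and 82 glia counts in the deepest, 20 and 24 in the second and 12 and 10 in the third.

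**Figure D5:**
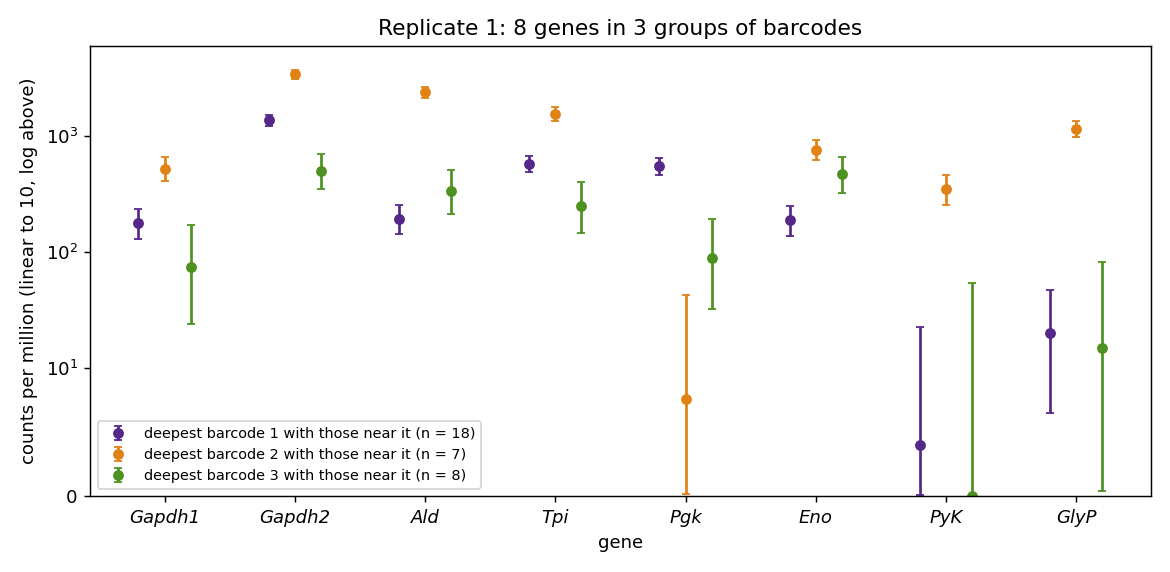
Levels of 8 of the 10 genes in replicate 1, in CPM (linear to 10, log above), in its 3 deepest barcodes each joined with the kept barcodes within 4 edits, with exact 95% Poisson intervals. GlyP and PyK are high in the group of the second deepest barcode and near 0 in the others, while Pgk is high in that of the deepest; Pglym78 and ImpL3, with 0 and 6 counts in the library, are left out.

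A gene was called gathered in a deep barcode when it had at least 5 counts there and the lower bound of its share of the gene's counts was over 2 times the barcode's share of the library. This limit was set with the counts known and serves as a description. Replicate 1 had 5 gathered pairs of gene and barcode, replicate 2 had 1 and replicate 3 had 0, while 202, 289 and 100 pairs were neither gathered nor low by the mirrored rule. The 5 pairs of replicate 1 were GlyP and Ald in the second and the fourth deepest barcodes and PyK in the second. GlyP had 51.5% of its counts in the second deepest barcode (43.6 to 59.4), which held 14.3% of the library. The pair of replicate 2 was again GlyP, with 66 of 388 counts, or 17.0% (13.4 to 21.1), in the fourth deepest barcode, which held 6.45% of the library. The rule is harder to meet in a barcode with a large share, and the deepest of replicate 3 held 34.3% of its library. The 0 pairs of replicate 3 therefore do not show even spread. Its kept barcodes outside the 3 deepest and those near them held 35.5% of the library but 7 of the 82 GlyP counts.

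The deepest barcode of replicate 2 mixed glia and neuron transcripts, with 7085 CPM of glia and 5414 CPM of neuron markers. The next 6 barcodes in depth had 1493 to 2215 CPM of glia and 6899 to 9388 CPM of neuron markers. Gapdh2 stood at 16107 CPM in the deepest barcode (15486 to 16747), above the 10437 to 13843 CPM of the next 6. GlyP stood at 330 CPM (247 to 433), below the 427 to 1564 CPM of the next 6, though the intervals overlapped. Ald at 6405 CPM, Gapdh1 at 4136 CPM, PyK at 2065 CPM, Pgk at 1652 CPM and Pglym78 at 3501 CPM were each below the lowest of the next 6, which was 8270, 4417, 2698, 1798 and 3740 CPM in that order of genes. Of these 5 genes, only for Ald did the intervals lie apart (6016 to 6813 in the deepest, 7127 to 9544 in the lowest of the next 6). Eno at 4613 CPM, ImpL3 at 3495 CPM and Tpi at 1868 CPM lay within the range of the next 6. This barcode was chosen for its depth, and no replicate of it exists in the other libraries. It also gave 71.1% of the glia-leaning counts of replicate 2, so its values are not independent of that class.

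The relation of the share of the 10 genes in deep barcodes to the markers differed between libraries and between measures. Spearman's rho with the summed neuron markers was 0.02 over 24 barcodes of replicate 1, 0.32 over 29 of replicate 2 and 0.44 over 10 of replicate 3. With the glia markers it was -0.28, -0.16 and -0.42. With the counts of the barcode it was 0.59, 0.37 and -0.33. Pearson's r on the log2 scale with the neuron markers was 0.07, 0.31 and 0.93, and with the glia markers -0.19, -0.20 and -0.58. The largest gap between the measures was thus for neuron markers in replicate 3. The barcodes of a library share its cells and amplification, and many of replicates 1 and 3 resemble each other, so these are descriptions.

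Levels of single genes were linked unevenly over the 63 deep barcodes, after log2(CPM + 100) and removal of each library's mean. Over the 45 pairs of genes Pearson's r ran from -0.61 to 0.71, with a median of 0.16. Ald and PyK had the highest value, 0.71, with 0.86, 0.43 and 0.32 in replicates 1, 2 and 3. Ald and Pgk had the lowest, -0.61, with -0.76 in replicate 1 but 0.35 and 0.60 in replicates 2 and 3. The pairs of Pgk had a median r of -0.38 with the libraries pooled, -0.52 in replicate 1 (8 pairs), 0.18 in replicate 2 and 0.63 in replicate 3, so the pooled sign was that of replicate 1 alone. In replicates 2 and 3 the values were positive in 7 of 9 pairs each. The deep barcodes of replicate 1 fall into the groups described, so its values rest on few independent points. Of 423 other genes ranked, the summed 10 genes were followed most closely by CG18815 (r = 0.67), GstD1 (0.64), CG31997 (0.64), Argk (0.63) and Fer2LCH (0.62). The ranked genes had a median r of -0.06, with 5% of them under -0.42 and 5% over 0.51.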

How the data were processed

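The authors' deposited tables hold whole-number counts per gene and barcode, not normalized, for 3 libraries. The submitters' processing notes name STAR 2.7.0 and Seurat 3.1.2 without their roles. The genome build, annotation, strand setting and any collapsing of copies to molecules are not given in the sources used here, so values are called counts. If copies were not collapsed, the true error exceeds the intervals. Total counts were 508018, 689416 and 369432 in replicates 1, 2 and 3, and kept barcodes held 97.9%, 94.9% and 93.6% of them.

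From these counts, every barcode that reached 200 genes was kept. No doublet caller was run and no limit was set on mitochondrial counts. CPM is counts per 1000000 of the summed barcodes. Exact 95% intervals came from scipy 1.17.1, and a count of 0 was given a limit of 3 counts. For each comparison, the sums of each class in each library were fitted over all genes by the quasi-likelihood test of edgeR 4.0.16 (R 4.3.3), with its default filter on low counts, TMM scaling, the library as a block and Benjamini-Hochberg adjustment. DESeq2 1.42.0 was an alternative. The block rests on both sums of a library coming from 1 suspension. A library needed at least 5 barcodes in each class. Fits were tested on simulated data. Thinning used the expected value of drawing a fixed number of counts without replacement, the lower quartile over kept barcodes, and left out shallower barcodes.

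All 10 genes are named. Of the other lists, the 4 genes with most counts could be named, and the 5 genes most like the summed genes were taken by Pearson r among genes with at least 50 counts in each library. The genes and lists were chosen with earlier results of these data known. Identifiers and arms come from the reference annotation, where 3 genes (Ald, ImpL3 and GlyP) were matched by an older symbol. Alternatives tried were other scaling, no filter, no block, other class limits, and leaving out deep barcodes or a library.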

Additional observations from a re-analysis of the deposited data

Results flagged for a closer look

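Barcodes with fewer than 200 genes were not kept and entered the tests only in the alternatives that took barcodes from 100 genes on, and they carried counts of the 10 genes. The genes took 0.589% of the counts of these barcodes in replicate 1 (62 of 10526 counts, exact 95% interval 0.452 to 0.754). They took 4.60% in replicate 2 (4.38 to 4.82) and 2.28% in replicate 3 (2.09 to 2.48). In replicate 2 the interval contained the share of the kept barcodes, 4.72%, and in replicates 1 and 3 the kept shares of 0.491% and 2.46% also lay inside. The limits for a count of 0 were 0.0285%, 0.00849% and 0.0126% in replicates 1, 2 and 3, which any class with more than a few counts exceeds, so they show only that the genes were counted there. With 3 libraries in the group, no library could be tested as an outlier.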

How the results depend on the processing

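The summed share of the 10 genes (2.56%) moved by less than its SD over libraries (2.12) under every setting tried. That SD is nearly as large as the mean, so this comparison could hardly fail and says little. With all 3 libraries the settings gave 2.38% to 2.64%, and leaving out each replicate in turn gave 1.48% to 3.59%. None of the 10 genes was called under any alternative of the 4 comparisons, except 2 with neuron markers when 1 marker was enough (Ald then at 0.90). Signs of single genes turned in 90 of 408 alternative values. Counts of all genes called moved more, and the cause was not tested. For deep against shallow barcodes, 3 genes were called, against 9 with DESeq2, 12 with RLE factors, 0 with no replicate block and 0 to 26 with a replicate left out, the 26 without replicate 1. For glia-leaning against neuron-leaning, the 2 called became 0 with DESeq2, no filter on low counts, no replicate block, without the 3 deepest barcodes, and from 100 genes on. For glia markers, 5 were called, against 11 with DESeq2, 19 with RLE factors, 0 with no replicate block, 1 without the 3 deepest barcodes, 0 without those and near barcodes, 0 under 1000 genes, 11 from 100 genes on, 3 with 1 marker and 0 to 14 with a replicate left out. For neuron markers, 0 were called, against 2 under 1000 genes, 19 with 1 marker and 0 to 7 with a replicate left out; 0 were called with no replicate block. Signs turned for Gapdh1 in deep barcodes (0.22 with no filter, 0.10 without replicate 1), for glia-leaning Pgk with no replicate block (-0.18), Gapdh2 (-0.076 without the 3 deepest, -0.0018 from 100 genes) and Tpi (-0.29 and -0.31), with glia markers for Gapdh2 (-0.10 without deepest and near barcodes, -0.31 under 1000 genes) and GlyP (-0.15 under 1000 genes), and with neuron markers for Ald (-0.12 and -0.0043). Thinning to 200 counts gave a difference of 0.0145 ± 0.327 genes (SD, n = 3). RLE moved the median of all genes by over 0.1 on the log2 scale, from 0.26 to 0.07 for deep barcodes. Too few libraries remained to fit the deep and glia-leaning comparisons without deepest and near barcodes, or the glia-leaning one under 1000 genes, with a 2-fold rule, or without replicate 1 or 2. Few counts limit the precision for ImpL3 and PyK in replicate 1 (6 and 56 counts) and for GlyP in barcodes without neuron markers (10, 9 and 1 counts).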
